A study of Mus musculus with 12 samples.

Results

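The comparison described here set 3 libraries titled KO female against 3 libraries titled WT female, 6 of the 12 libraries of the series, across all genes. The libraries are RNA-seq profiles of regulatory T cells (Tregs), sorted as CD4+CD25hiCD127lo singlets from mesenteric lymph nodes. All mice were of the SAMP/YitFC strain, a line in which inflammation of the ileum arises spontaneously, and were untreated. WT mice carry Esr2, the gene of estrogen receptor beta, and KO mice (SAMP-ERb-KO) lack it in the whole body, so an absence in Tregs cannot be told apart from its absence in other cells. The other 6 libraries, 3 titled WT male and 3 titled KO male, entered the fit and the interaction. No label gives the ages of the mice, the part of Esr2 that is missing, or the number of mice behind a library. P-values therefore measure the spread between these libraries, which may be technical.

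Tregs are CD4 T cells that restrain other immune cells, and the transcription factor FOXP3 defines the lineage. They carry a high level of CD25, a subunit of the interleukin-2 receptor, and little CD127, the interleukin-7 receptor. Estrogen receptor beta is a nuclear receptor that binds DNA when it holds estrogen. Type I interferons signal through a receptor pair, IFNAR1 and IFNAR2, to the kinases JAK1 and TYK2 and then to a complex that holds STAT2 and IRF9, which binds interferon-stimulated response elements in the promoters of antiviral genes. IRF7 is itself such a target and amplifies the signal, and USP18 limits it.

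The libraries are called WT 1 to 3 and KO 1 to 3 after their titles, and these names state the label, not the genotype that the RNA showed. Esr2 (chromosome 12, 76120419 to 76177259 in GRCm38.p6) did not follow the titles. WT 1 held 0 Esr2 counts, which allows up to 0.201 counts per M (CPM), and WT 2 and WT 3 held 133 and 159 counts (8.79 and 12.3 CPM). KO 1, KO 2 and KO 3 held 161, 94 and 128 counts (10.9, 8.05 and 11.7 CPM). All 3 libraries labelled KO thus held Esr2 reads, and the library without them was labelled WT. A count over the whole gene does not show whether the remaining transcript is intact. Esr1, the gene of estrogen receptor alpha, was low in both groups, at 4.88, 2.31 and 2.01 CPM in WT and 2.63, 2.40 and 3.10 CPM in KO.

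Sex-linked genes went against the title in 2 of the 6 libraries. Counts of Xist, which silences one X chromosome in females, were 1518, 7 and 1497 in WT 1 to 3 and 1, 1378 and 662 in KO 1 to 3. The sum over Uty, Kdm5d, Ddx3y and Eif2s3y, all on the Y chromosome, was 5501 counts in WT 2, 3987 in KO 1 and 0 in the other 4. Both groups therefore held 1 library with a male pattern. Every direction below rests on the titles, and several counts are also given without WT 2 and KO 1.

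**Figure D1:**
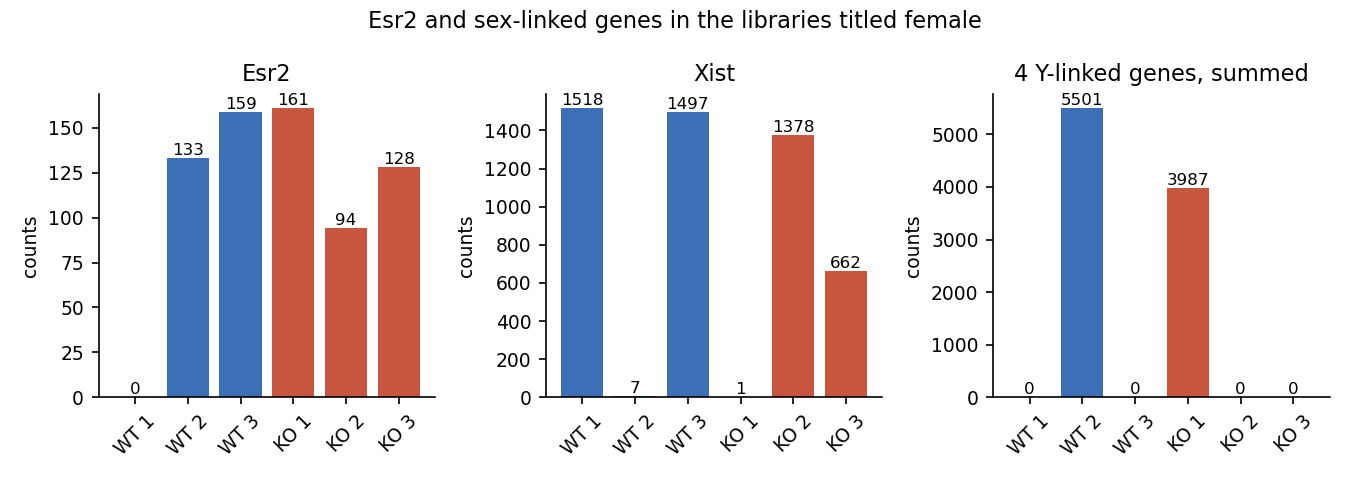
Counts of Esr2, of Xist and of 4 Y-linked genes summed, one bar per library titled female (blue WT, red KO; the y axes start at 0 and differ between panels). Esr2 was at 0 in WT 1 and between 94 and 161 in the other 5, and WT 2 and KO 1 held Y-linked counts.

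Total counts were 15.1, 15.0 and 13.4 M in WT 1 to 3 and 14.8, 11.6 and 11.1 M in KO 1 to 3 (14.5 ± 0.949 and 12.5 ± 1.99 M, mean ± SD, n = 3), so 3 counts were worth between 0.198 and 0.274 CPM. No 2 libraries agreed within sampling noise. The root mean square log2 distance over 9029 genes was 0.313 to 0.416 within WT, 0.343 to 0.542 within KO and 0.366 to 0.523 between the groups. Libraries of different groups were therefore no farther apart than some of the same group. The pair WT 2 and KO 1, at 0.366, lay closer than WT 2 lay to either other WT library (0.369 and 0.416), and KO 2 stood 0.501 and 0.542 from KO 3 and KO 1. Two-sided tests were made with edgeR's quasi-likelihood fit, and a gene passed at a Benjamini-Hochberg adjusted p under 0.05.

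The sorted identity was present in all 6 libraries and did not separate the groups. Foxp3 (chromosome X, 7579676 to 7595243) stood at 634, 764 and 926 CPM in WT and 895, 583 and 765 CPM in KO (log2 fold change -0.05, SE 0.20, adjusted p = 0.969). Il2ra, the gene of CD25, ranged from 774 to 913 CPM in WT and from 544 to 887 CPM in KO. Il7r, the gene of CD127, ranged from 145 to 252 CPM and from 156 to 190 CPM. Of 16 Treg core genes, 7 had a positive and 9 a negative log2 fold change, and the median was -0.08.

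No gene passed in this comparison (0% of 13692 tested). The smallest adjusted p was 0.104, and 1055 genes (7.71%) had an unadjusted p under 0.05, 402 higher (2.94%) and 653 lower (4.77%) in KO. DESeq2 on the same 12 libraries called 22 genes, 8 higher and 14 lower, among them Scin, Far1, Eea1, Ly6c1, Irf7 and Cmpk2, described below. By contrast limma voom with quality weights called 1698, and limma on the deposited log2 values called 0. As a description, all 3 KO libraries were above all 3 WT libraries for 1260 genes (9.20%) and below them for 1609 (11.8%), 21.0% together. The median log2 difference of these sets was 0.37 and 0.47 in size. Without KO 2 the 2 counts were 3021 and 3232, and without WT 2 and KO 1 they were 2730 and 2928.

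**Figure D2:**
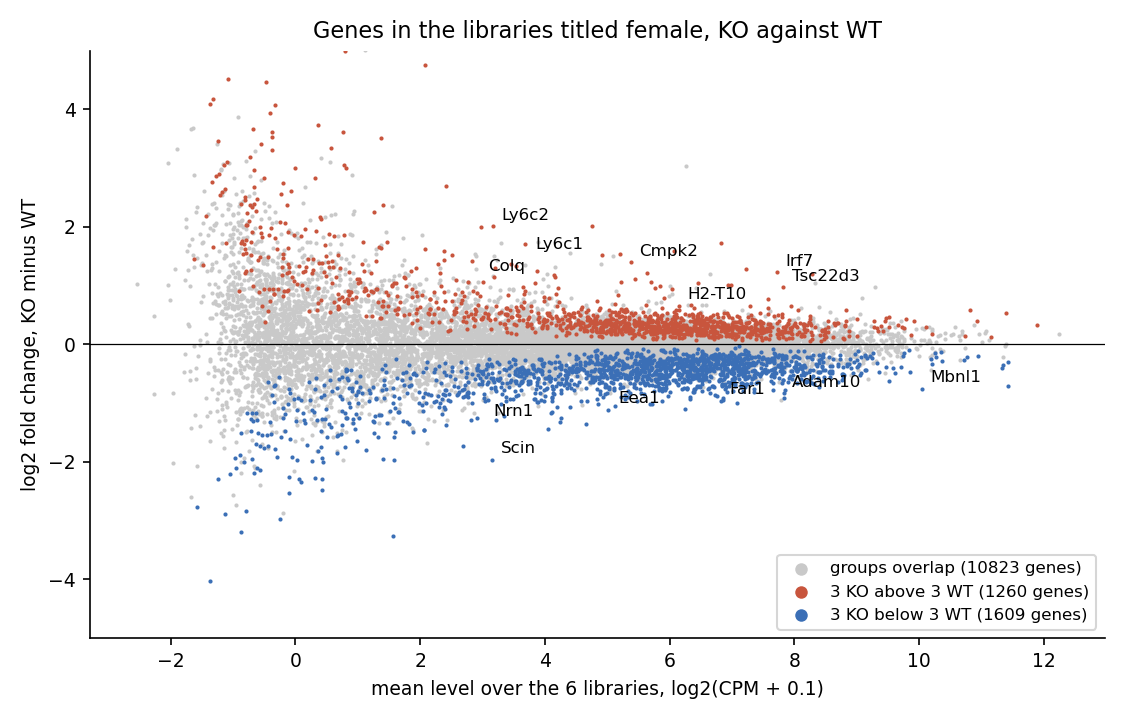
Each point is a tested gene, with its mean level over the 6 libraries on the x axis, as log2(CPM + 0.1), and the log2 fold change of KO minus WT on the y axis (6 genes beyond 5 are not drawn). Red and blue mark the 1260 and 1609 genes whose groups do not overlap, whose median differences are 0.37 and 0.47 in size.

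The 12 genes described first are those lower in all KO libraries with the smallest p and at least 5 CPM on average, and none passed. Scin (chromosome 12, 40059769 to 40134228), the gene of the actin-severing protein scinderin, stood at 15.4, 15.2 and 11.5 CPM in WT and at 3.51, 4.20 and 3.10 CPM in KO. The lowest WT value was well above the highest KO value (log2 fold change -1.96, SE 0.31, adjusted p = 0.104). Far1 (chromosome 7, 113513719 to 113571506) encodes a peroxisomal reductase that makes the fatty alcohols of ether lipids. Its levels were tight within each group, at 147, 151 and 152 CPM in WT and 80.5, 77.4 and 73.0 CPM in KO (-0.96, SE 0.16, adjusted p = 0.104). Eea1, a tether of early endosomes (chromosome 10, 95940663 to 96045518), stood at 104, 89.4 and 116 CPM in WT and 46.6, 49.7 and 47.9 CPM in KO (-1.10, SE 0.21, adjusted p = 0.291). For each of these genes the gap between the groups was wider than the range within either.

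Adam10, the protease that sheds Notch and other surface proteins, stood at 296, 263 and 316 CPM in WT and 152, 181 and 158 CPM in KO. Mbnl1, a splicing regulator, stood at 1324, 1302 and 1369 CPM in WT and 749, 920 and 694 CPM in KO. Naa50, an N-terminal acetyltransferase, stood at 130, 129 and 125 CPM in WT and 85.5, 84.2 and 65.3 CPM in KO. The groups of these genes did not overlap, at log2 fold changes of -0.84, -0.76 and -0.71 and adjusted p of 0.459 each. Nrn1, the gene of neuritin, a surface protein known from Tregs and anergic T cells, stood at 28.8, 22.7 and 29.6 CPM in WT and 8.50, 15.6 and 8.30 CPM in KO (-1.32, SE 0.30). Lysmd3 had -1.26, Fam55d (now Nxpe4) -1.01, the palmitoyltransferase gene Zdhhc2 -0.89, Sh3bgrl -0.79 and Pphln1 -0.75, with adjusted p between 0.340 and 0.459.

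Of the 12 genes higher in all KO libraries chosen the same way, 6 are in the interferon list described below and 2, Ly6c1 and Ly6c2, in the list of resting T cells. Ly6c2 is also in the list of macrophage and monocyte genes. Ly6c1 (chromosome 15, 75044018 to 75048920), a surface antigen of resting and memory T cells that interferon also induces, stood at 15.2, 18.05 and 13.3 CPM in WT and 40.5, 30.5 and 62.2 CPM in KO (log2 fold change 1.51, SE 0.26, adjusted p = 0.139). Ly6c2, its near-identical neighbour, stood at 6.55, 1.98 and 1.94 CPM and at 8.77, 16.1 and 17.8 CPM (2.02, SE 0.51), and reads may be split between the pair. KO 1 was closest to WT for Ly6c2 and KO 3 highest for both genes. Tsc22d3 (chromosome X, 140539528 to 140600522) encodes the glucocorticoid-induced leucine zipper protein. It stood at 140, 146 and 174 CPM in WT and 302, 241 and 358 CPM in KO (0.97, SE 0.26, adjusted p = 0.459). Colq, the collagen tail of acetylcholinesterase, had 1.15, Tcirg1, a subunit of the proton pump of acid compartments, 0.66, and the nonclassical MHC class I gene H2-T10 0.66, each with groups that did not overlap.

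**Figure D3:**
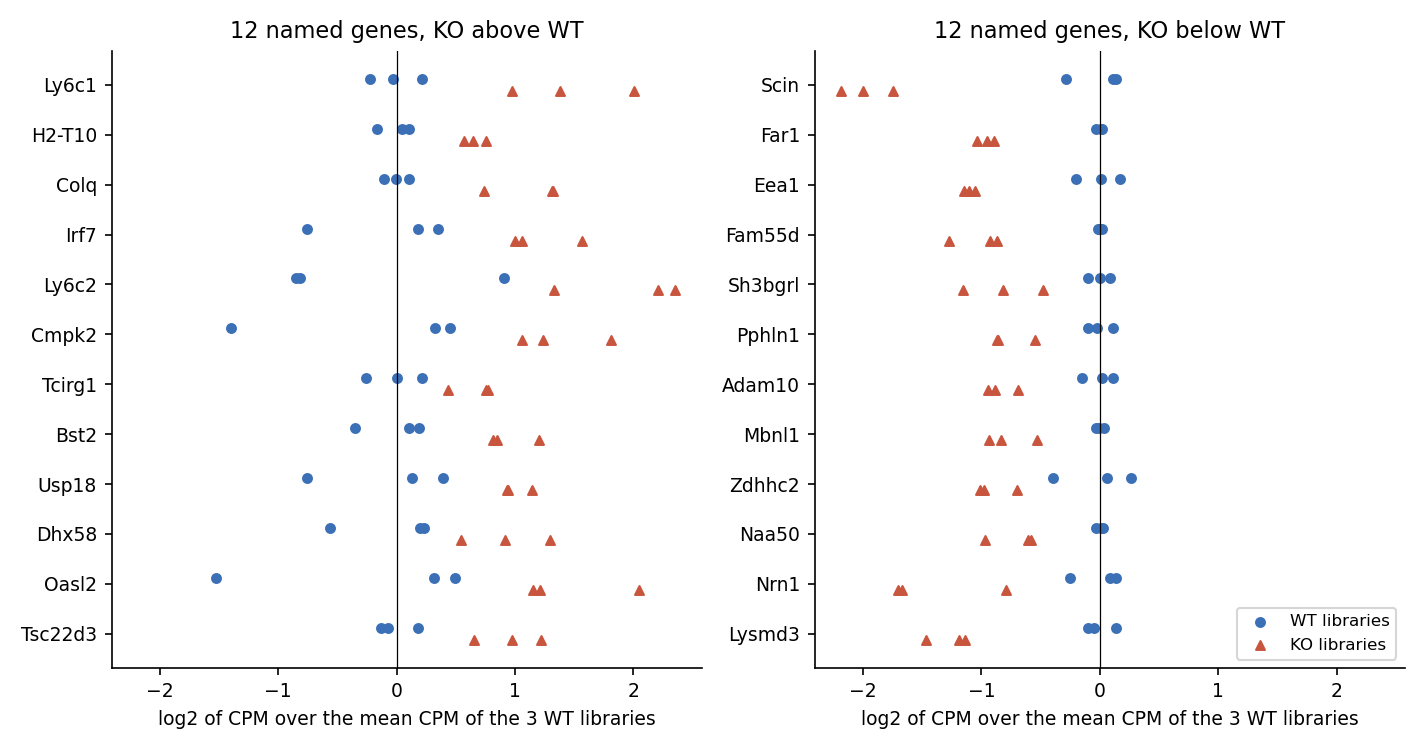
Levels of the 12 named genes in each direction, as log2 of the CPM over the mean CPM of the 3 WT libraries (circles WT, triangles KO, one symbol per library). In both panels no KO symbol overlaps the WT symbols of its gene, and 1 WT library lies far below the others for Irf7, Cmpk2, Usp18, Dhx58 and Oasl2.

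Genes lower and higher without overlap differed in length and base composition. The 1609 genes lower in all KO libraries had a median transcript length of 4862 bases and a GC content of 44.99%, the 1260 higher genes 2458 bases and 53.3%, and all tested genes 3282 bases and 49.7%. The median log2 fold change went from 0.17 in the shortest 10% of genes to -0.21 in the longest 10%, and from -0.24 at the lowest GC content to 0.18 at the highest. In the longest 10% of genes 27.3% of genes were lower in all KO libraries and 3.85% higher, against 2.72% and 15.3% in the shortest 10%. The 3 WT libraries deviated by 0.11, 0.12 and 0.19 in the longest 10% and the 3 KO libraries by -0.09, -0.17 and -0.07. By GC content KO 2 stood apart from the other KO libraries, with a nearly flat course from 0.00 at the lowest to 0.02 at the highest GC content, against -0.15 to 0.13 in KO 1 and -0.21 to 0.14 in KO 3. With this trend removed from each library, 1130 genes were higher and 1163 lower without overlap. Scin kept most of its difference (-1.92), as did Ly6c1 (1.41), whereas Far1 was at -0.56, Mbnl1 at -0.39, Adam10 at -0.58 and Eea1 at -0.72. The groups of all 6 still did not overlap. What produced the trend was not tested.

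**Figure D4:**
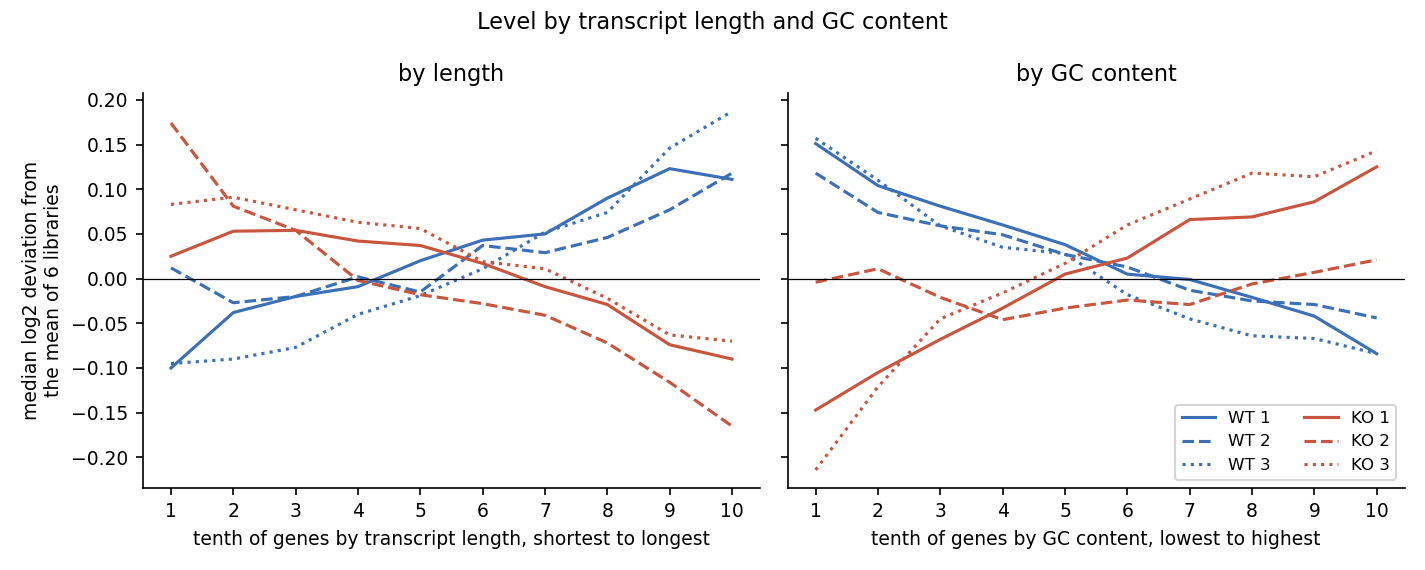
Median log2 deviation of each library from the mean of the 6, over 10 equal bins of the tested genes ordered by transcript length (left) and GC content (right), with WT in blue and KO in red. WT lines rise and KO lines descend with length, and by GC content KO 1 and KO 3 run opposite to the 3 WT libraries while KO 2 is nearly flat.

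Genes of the antiviral interferon program had mostly higher values in the KO libraries, direct effectors and Irf7 among them, though no member passed. Of 64 interferon genes 60 were tested, 51 had a positive log2 fold change (51.0% of all genes did), and the median was 0.36 against 0.01 over all genes. All 3 KO libraries were above all 3 WT libraries for 22 of the 60 (36.7%, against 9.20% of all genes) and below them for 2 (3.33%, against 11.8%). An unadjusted p under 0.05 was reached by 22 members, all higher. The list was chosen with earlier results of these data known, and these counts are a description.

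Letters of the interferon-stimulated response element stand in promoters of this list, shown here because the members below were higher side by side. The motif searched was GAAA, any 2 bases, GAAA, or on the other strand TTTC, any 2 bases, TTTC, in RefSeq promoters of GRCm38.p6 that run from 250 bases before the start to 50 after it. It was found in 23 of the 44 tested list genes with an entry (52.3%), in 401 of 10467 tested genes (3.83%) and in 1131 of all 32851 promoters (3.44%). Among list genes whose KO libraries were all above WT it was found in 5 of 14, and among the other list genes in 18 of 30. Printed 5′ to 3′ on the strand of the gene are 3 of those 5, whose matches all lie before the start and outside the gene's annotated span. Matching letters are in capitals, with overlapping matches run together. The windows are Ifit1 at chr19:34640765-34640833 (plus strand), Isg15 at chr4:156200855-156200916 (minus) and Bst2 at chr8:71537567-71537622 (minus).
Ifit1: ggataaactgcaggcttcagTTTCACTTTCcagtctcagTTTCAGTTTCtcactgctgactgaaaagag
Isg15: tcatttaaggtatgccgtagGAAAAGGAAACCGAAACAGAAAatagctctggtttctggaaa
Bst2: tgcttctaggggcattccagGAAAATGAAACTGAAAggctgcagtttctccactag
In Ifit1 the 2 matches stand apart and read on the opposite strand. In Bst2 the 2 and in Isg15 the 3 matches overlap and read on the strand of the gene. A match is a description of these letters, not a measured site.

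Receptors and first signalling proteins had values near 0. Among 8 receptor, kinase and STAT genes the median log2 fold change was 0.04. Ifnar1 ranged from 190 to 223 CPM in WT and from 160 to 277 CPM in KO, and Ifnar2 stood at 127, 138 and 136 CPM in WT and 148, 168 and 147 CPM in KO. Jak1 was lower in all KO libraries, at 1944, 1648 and 1943 CPM in WT against 1517, 1526 and 1544 CPM (-0.27, SE 0.21). With the length and GC trend removed Jak1 was at -0.13 and Ifnar2 at 0.16, and the groups of both overlapped. Stat2 stood at 268, 180 and 204 CPM in WT and 263, 407 and 326 CPM in KO (0.61, SE 0.27), where KO 1 lay within the WT range.

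Irf7 (chromosome 7, 141263183 to 141266499) stood at 161, 75.0 and 144 CPM in WT and at 253, 264 and 374 CPM in KO. Every KO library exceeded every WT library, and WT 2 was the lowest of the 6 (log2 fold change 1.23, SE 0.29, adjusted p = 0.459). Irf9, the DNA-binding partner of STAT2, differed less, at 252, 220.5 and 241 CPM against 285, 311 and 318 CPM (0.36, SE 0.14). Irf1, which interferon gamma induces most, overlapped (0.15, SE 0.18). Among 5 sensors of viral nucleic acid, Dhx58, the gene of LGP2, stood at 51.6, 30.5 and 52.9 CPM in WT and 84.8, 65.6 and 110 CPM in KO (0.95, SE 0.25). Zbp1, a sensor of Z-form nucleic acid, stood at 147, 114 and 162 CPM and at 218, 166 and 335 CPM (0.77, SE 0.24), while Ddx58, the gene of RIG-I, and Ifih1, the gene of MDA5, overlapped at 0.30 and 0.28. With the length and GC trend removed Ifih1 was above WT in all KO libraries (0.57), and Ddx58 still overlapped (0.40).

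Of 28 tested antiviral effectors 27 were positive, the median was 0.91, and 16 (57.1%, against 9.20% of all genes) were above WT in all 3 KO libraries. Without WT 2 the median was 0.54 with 23 positive and 16 above, and without KO 3 it was 0.62 with 24 positive and 16 above. Cmpk2 (chromosome 12, 26469117 to 26479837), a mitochondrial nucleotide kinase, stood at 28.6, 8.66 and 31.3 CPM in WT and 47.5, 53.7 and 80.1 CPM in KO (1.40, SE 0.36, adjusted p = 0.459). Isg15, a ubiquitin-like modifier, stood at 35.4, 25.9 and 40.3 CPM in WT and 73.6, 56.5 and 81.1 CPM in KO (1.06, SE 0.31). Both genes separated the groups with a gap, and WT 2 was again the lowest.

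WT 2 was also the lowest library for the RNA-binding effectors Ifit1, whose promoter letters are given above, and Ifit3. Ifit1 stood at 101, 25.7 and 134 CPM in WT and 170, 217 and 248 CPM in KO (1.28, SE 0.47). Ifit3 stood at 42.1, 6.08 and 52.2 CPM in WT and 76.7, 75.4 and 149 CPM in KO (1.59, SE 0.65). Ifit2 differed less and overlapped (0.22, SE 0.18), but with the length and GC trend removed it was above WT in all KO libraries (0.43). Among the oligoadenylate synthetase family, which makes the activator of RNase L, Oas2 stood at 17.7, 2.51 and 11.8 CPM in WT and 27.7, 46.9 and 54.6 CPM in KO (2.01, SE 0.62), and Oasl2 at 26.5, 6.54 and 23.4 CPM and 41.8, 43.7 and 77.8 CPM (1.53, SE 0.41). Oasl1 stood at 3.14, 0.397 and 5.81 CPM and 10.3, 10.96 and 15.9 CPM (2.00, SE 0.68), while Oas1a (0.68) and Oas3 (0.85) overlapped. These are multigene families in which counting can split reads between near-identical copies.

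Effectors at membranes followed. Bst2, the gene of tetherin, stood at 39.7, 29.0 and 42.3 CPM in WT and 64.8, 66.4 and 85.1 CPM in KO (0.96, SE 0.25). Ifitm3, which blocks viral fusion, stood at 27.3, 16.2 and 28.3 CPM and 44.4, 52.2 and 53.7 CPM (1.07, SE 0.30). The dynamin-like GTPases Mx1 and Mx2 had 1.18 and 1.25 without overlap. Ifi27l2a stood at 211, 115 and 241 CPM in WT and 321, 454 and 525 CPM in KO (1.20, SE 0.39), and Rtp4, Xaf1, Ifi35 and Isg20 had 1.04, 0.79, 0.54 and 0.53, also without overlap. Effectors close to 0 included Eif2ak2, the gene of the kinase PKR (0.02, SE 0.23), Samd9l (0.04, SE 0.24), Herc6 (0.06, SE 0.24) and Slfn5 (0.06, SE 0.23). Parp14 was lower in all KO libraries (-0.21, SE 0.22). With the length and GC trend removed Eif2ak2 was at 0.22, Samd9l at 0.43, Herc6 at 0.41, Slfn5 at 0.33 and Parp14 at 0.05. Herc6 was then above WT in all KO libraries, the others overlapped, and so did Isg20 (0.28). Rsad2, the gene of viperin, had a log2 fold change of 1.06 (SE 0.69), but WT 3, at 9.68 CPM, lay above KO 1 and KO 2, at 7.76 and 6.42 CPM.

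Of 13 guanylate-binding and immunity GTPase genes, families that interferon gamma strongly induces, 0 were above WT in all KO libraries (9.20% of all genes were), and the median was 0.21. Without KO 1, 5 were above (38.5%, against 13.8% of all genes), without WT 2 and KO 1, 6 (46.2%, against 19.4%), and the median was 0.01 without WT 2 and 0.05 without KO 3. Gbp7 stood at 815, 637 and 1010 CPM in WT and 472, 661 and 621 CPM in KO (-0.49, SE 0.23), and Irgm1 at 266, 220 and 265 CPM and 277, 242 and 438 CPM (0.35, SE 0.20). With the length and GC trend removed Gbp7 was at -0.16 and Irgm1 at 0.46. The median of the 13 genes was then 0.37, with 2 above (15.4%, against 8.25% of all genes) and 0 below. Of the 3 feedback inhibitors, Usp18 (chromosome 6, 121245906 to 121270917) stood at 91.7, 49.4 and 110 CPM in WT and 160.0, 160.5 and 185 CPM in KO (1.01, SE 0.27), whereas Socs1 (0.12) and Socs3 (0.15) overlapped.

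**Figure D5:**
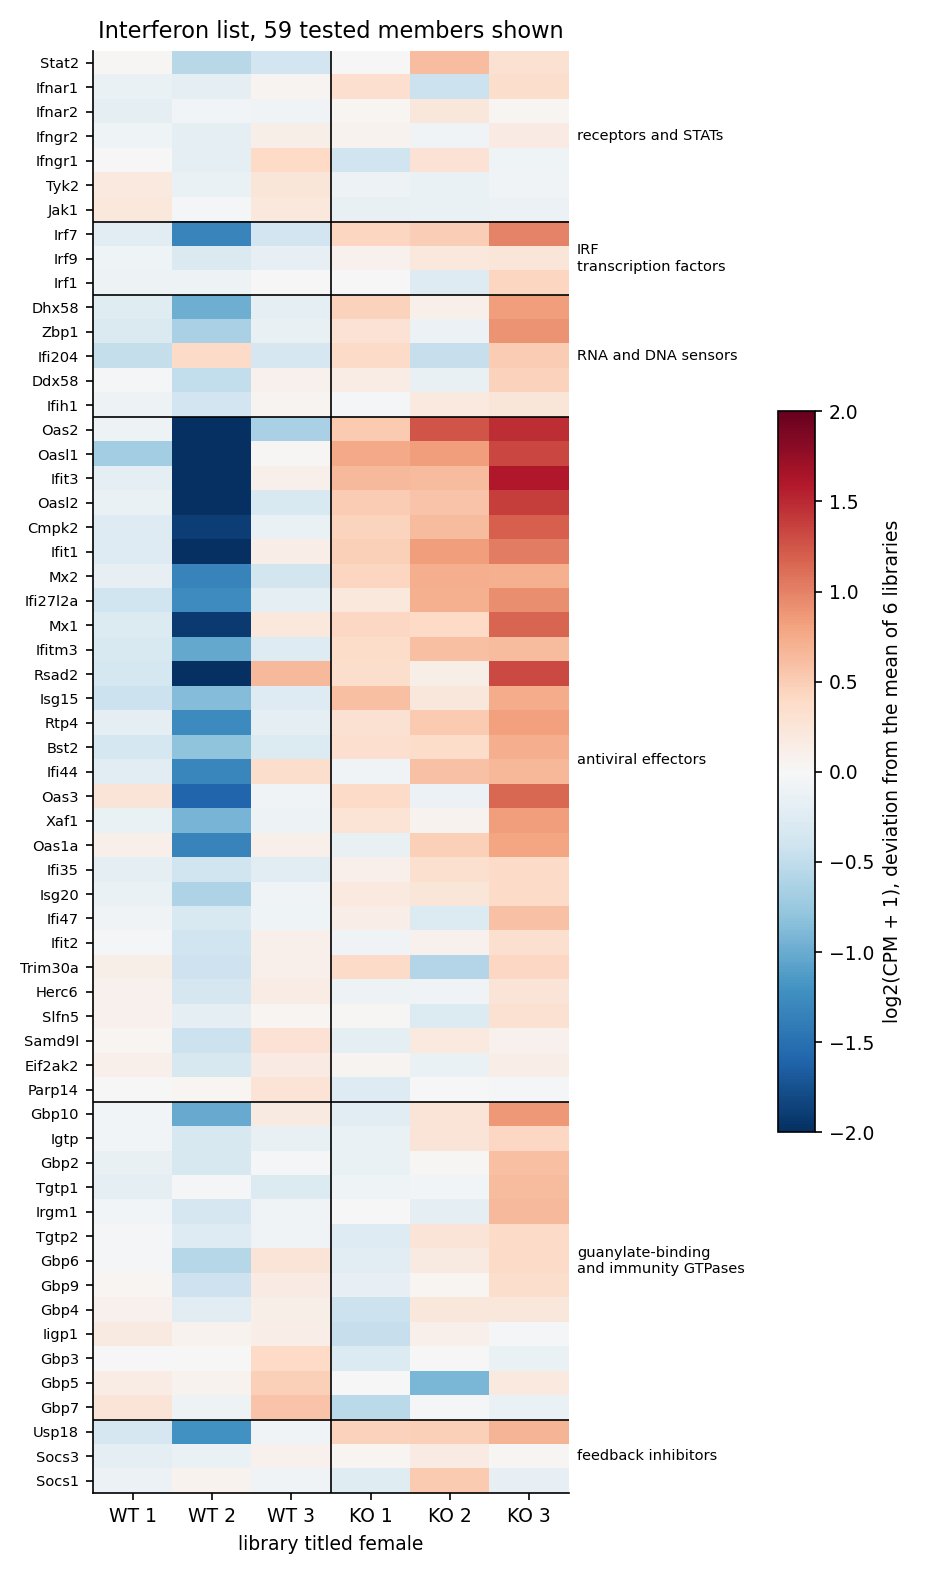
Heat map of 59 of the 60 tested interferon genes, rows grouped by role, columns the 6 libraries titled female; colour is log2(CPM + 1) minus the gene's mean over the 6 (scale from -2 to 2, values beyond it take the end colour). Antiviral effectors are darkest blue in WT 2 and red in KO 3, while receptors, STATs and GTPases show little contrast between the groups.

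WT 2, the WT library with Y-linked counts, was the lowest for the antiviral effectors, and KO 3 the highest. Over the 28 antiviral effectors, the median log2 deviation from the mean of the 6 libraries was -0.15, -1.17 and -0.01 in WT 1 to 3 and 0.33, 0.35 and 0.79 in KO 1 to 3. Without WT 2 the list median was 0.29, and 23 of 60 members (38.3%) were above WT, against 14.3% of all genes. Without KO 3 it was 0.22, with 22 (36.7%) above, against 12.2%. Without both libraries whose sex-linked genes opposed the title it was 0.39, with 32 (53.3%) above and 5 below, against 19.4% and 20.8%. With the length and GC trend removed it was 0.44, with 25 (41.7%) above, against 8.25%, and 0 below. In each of these settings no member passed with edgeR. B cell and dendritic cell genes summed to 1072, 756 and 321 CPM and to 1734, 1759 and 1052 CPM in WT 1 to 3, and to 898, 1346 and 2117 CPM and 1851, 2112 and 2835 CPM in KO 1 to 3. KO 3 had the highest and WT 3 the lowest value of both sums, and KO 1 lay below WT 1 in its B cell sum. The part of other cells in the result was not tested. In bulk RNA fewer cells of a type and less RNA per cell cannot be told apart.

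MHC class I presentation genes, many of them interferon-induced, had small positive values. Of 17 tested, 14 were positive, 10 were above WT in all KO libraries (58.8%, against 9.20% of all genes) and 1 below, and the median was 0.27. H2-T22 (chromosome 17, 36037128 to 36042742), a nonclassical heavy chain, stood at 225, 199 and 220 CPM in WT and 298, 273 and 393 CPM in KO (0.58, SE 0.17, adjusted p = 0.459). H2-T23, the gene of Qa-1, stood at 770, 662 and 828 CPM and 927, 892 and 1229 CPM (0.43, SE 0.17), and H2-K1 at 3421, 2962 and 3700 CPM and 3731, 4417 and 4469 CPM (0.32, SE 0.15). The transporter genes Tap1 and Tap2 had 0.29 and 0.23, the immunoproteasome activator gene Psme1 0.30, and B2m, the shared light chain, 0.01. Erap1, the peptide trimming enzyme, stood lower in all KO libraries, at 251, 234 and 242 CPM against 202, 171 and 192 CPM (-0.36, SE 0.20). H2 genes form a family of similar sequences, and the counting could divide reads between them. With the length and GC trend removed, 2 of the 17 were above WT in all KO libraries (11.8%, against 8.25% of all genes) and the median was 0.09. Without KO 3 the median was 0.14, with 10 above (58.8%, against 12.2% of all genes) and 2 below (11.8%, against 15.5%).

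Markers of resting T cells had mostly positive and markers of activated Tregs mostly negative values, without a passing member. Of 19 resting T cell genes 16 were positive, 9 (47.4%, against 9.20%) were above WT in all KO libraries and the median was 0.38. Klf2, the transcription factor that keeps T cells recirculating, stood at 156, 181 and 236 CPM in WT and 302, 261 and 341 CPM in KO (0.66, SE 0.18). Its target S1pr1, the egress receptor, had 0.38, and the transcription factor genes Lef1 and Satb1 0.49 and 0.36, all without overlap. Levels of Bcl2, a survival gene, were 1032 CPM in KO 2 against 256 to 443 CPM elsewhere.

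Of 27 effector Treg genes 6 were positive, 4 (14.8%, against 11.8% of all genes) were below WT in all KO libraries, 0 were above, and the median was -0.28. The count of lower genes rested on single libraries. It was 11 without WT 2 (40.7%, against 16.7% of all genes), 12 without KO 2 (44.4%, against 22.7%) and 12 without WT 2 and KO 1 (44.4%, against 20.8%), and the median was -0.45 without WT 2 and -0.12 without WT 3. Prdm1, the gene of the repressor BLIMP-1 (chromosome 10, 44437174 to 44528558), stood at 99.9, 76.7 and 140 CPM in WT and 59.9, 66.0 and 54.5 CPM in KO (-0.81, SE 0.25, adjusted p = 0.474). Fgl2, a secreted suppressor of T cells, stood at 80.8, 67.1 and 85.6 CPM in WT and 32.7, 47.9 and 39.2 CPM in KO (-0.96, SE 0.31). Ccr4, a chemokine receptor gene, had -0.62 and Ikzf3, the gene of Aiolos, -0.36 without overlap, while Icos and Il10 overlapped, at -0.32 and -0.52. Within the Treg core list, Entpd1, the gene of the ATP-cleaving enzyme CD39, stood at 91.5, 105 and 100 CPM in WT and 68.3, 84.7 and 68.9 CPM in KO (-0.42, SE 0.17, adjusted p = 0.593), and its groups overlapped with the length and GC trend removed. Ikzf2, the gene of Helios, split the KO libraries, at 131 and 98.5 CPM in KO 1 and KO 3 and 386 CPM in KO 2, against 255 to 321 CPM in WT.

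Genes of the Th17 and gut homing programs had mostly negative values. Of 14 tested Th17 genes 2 were positive, 4 (28.6%, against 11.8%) were below WT in all KO libraries and the median was -0.37. Without KO 2, 8 were below (57.1%, against 22.7%) with a median of -0.58, without WT 2, 7 (against 16.7%), and without WT 2 and KO 1, 7 (against 20.8%) with a median of -0.57. Without KO 3 the median was -0.23. Il1r1, the interleukin-1 receptor, stood at 25.3, 24.0 and 19.0 CPM in WT and 12.7, 12.5 and 12.8 CPM in KO (-0.85, SE 0.26, adjusted p = 0.474). Ahr, a ligand-activated transcription factor of barrier lymphocytes, stood at 166, 143 and 119 CPM in WT and 98.4, 103 and 61.7 CPM in KO (-0.70, SE 0.22). Of 14 gut homing genes 3 (21.4%, against 11.8%) were below WT in all KO libraries, with a median of -0.17. Without WT 2, without KO 1 or without KO 3, 5 were below (35.7%, against 15.5 to 16.7% of all genes), and without WT 2 and KO 1, 7 (against 20.8%). With the length and GC trend removed 2 were below (14.3%, against 8.49% of all genes) and the median was -0.06, and Ahr overlapped. Ccr2 stood at 179, 129 and 149 CPM in WT and 67.3, 101 and 73.0 CPM in KO (-0.92, SE 0.24), and Ccr6 at 244, 177 and 199 CPM and 97.8, 168 and 98.4 CPM (-0.77, SE 0.26). For Ccr6 the value of KO 2 lay just under WT 2.

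Estrogen receptor cofactors pointed in both directions. Of 16 tested genes of receptors, cofactors and targets, 3 (18.8%, against 9.20% of all genes) were above and 3 (18.8%, against 11.8%) below WT in all KO libraries, and the median was -0.20. Lower genes numbered 6 without WT 1 and 6 without KO 2 (37.5%, against 15.1% and 22.7%). With the length and GC trend removed the median was 0.00, with 1 above (6.25%, against 8.25%) and 2 below (12.5%, against 8.49%). The coactivator gene Ncoa2 stood at 147, 139 and 176 CPM in WT and 111, 107 and 109 CPM in KO (-0.50, SE 0.20, adjusted p = 0.587), and Ep300 and Crebbp, which acetylate histones, were also lower without overlap (-0.60 and -0.25). Igfbp4, an estrogen-responsive gene that is also a marker of resting CD4 T cells, stood at 92.2, 48.8 and 17.2 CPM in WT and 141, 108 and 272 CPM in KO (1.72, SE 0.56, adjusted p = 0.4993). The classical target genes Pgr and Tff1 were below the filter, at no more than 0.468 CPM in any of the 6 libraries.

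Transcripts of other cell types varied within both groups. Of 19 tested B cell genes all were positive, with a median of 1.02, but only Blk (5.26%, against 9.20% of all genes) was above WT in all KO libraries. Ms4a1, the gene of CD20, stood at 18.5, 9.25 and 4.26 CPM in WT and 16.0, 41.5 and 36.5 CPM in KO (1.55, SE 0.61), and WT 1 exceeded KO 1. Without WT 1, 16 of the 19 were above (84.2%, against 12.6% of all genes), without KO 1, 13 (68.4%, against 13.8%), and without WT 2 and KO 1, 13 (against 19.4%). Of 18 dendritic cell genes 1 was above WT in all KO libraries (5.56%, against 9.20% of all genes), Bst2, which is also in the interferon list. Without WT 2 and KO 1, 10 were above (55.6%, against 19.4%). Without WT 3, 2 were above (11.1%, against 13.3%) and 5 below (27.8%, against 15.2%), with a median of 0.09. Macrophage and monocyte genes summed to 790, 724 and 414 CPM in WT and 612, 701 and 879 CPM in KO. In the B cell, dendritic cell and macrophage lists WT 3 had the lowest and KO 3 the highest sum. The CD8 chain genes Cd8a and Cd8b1, which the CD4 gate should not hold, were low. Cd8a was separate, at 6.75, 7.67 and 5.26 CPM in WT against 10.999, 15.8 and 22.98 CPM in KO (1.33, SE 0.43). Cd8b1 (0.74) was barely so, at 10.43, 14.81 and 10.22 CPM against 14.98, 16.78 and 27.54 CPM. With the length and GC trend removed Cd8a stayed separate (1.37) and Cd8b1 overlapped (0.62).

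Several neutrophil granule genes were near absent in WT. Ngp (chromosome 9, 110419808 to 110423012), the gene of neutrophilic granule protein, had 0 counts in all 3 WT libraries and 44, 36 and 137 counts in KO 1 to 3, at least 83.0-fold more against 3 counts over the WT group. Lcn2, the gene of lipocalin-2, also had 0 counts in WT and 4, 5 and 34 in KO, at least 16.5-fold more. S100a8 and Ltf stood no higher than 0.198 and 0.464 CPM in WT and at 0.540, 2.74 and 6.29 CPM and 1.69, 3.17 and 19.0 CPM in KO. KO 3 had the highest level of each. These genes are near 0 in WT and passed the filter on low counts through other libraries, and 7 of the 18 listed neutrophil and mast cell genes did not pass it, so no test or count over them is given. Summed over the neutrophil genes of the list, levels were 15.25, 11.24 and 14.63 CPM in WT and 12.75, 36.48 and 70.13 CPM in KO. By this sum KO 1 lay within the WT range. The mast cell gene Kit stood at 27.2, 23.1 and 19.8 CPM in WT and 19.3, 9.85 and 15.3 CPM in KO.

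The difference between KO and WT in the libraries titled female was set against that in the libraries titled male by an interaction term. No gene passed (0% of 13692, smallest adjusted p 0.900), 659 (4.81%) had an unadjusted p under 0.05, and DESeq2 called 3 genes, Cmpk2, Cd22 and Arhgap29. Of the 60 interferon genes 25 had an unadjusted p under 0.05, against 4.81% of all genes. KO male 1 and KO male 2 held 3864 and 1016 Xist counts and 0 Y-linked counts, a female pattern. Esr2 counts were 0, 1 and 14 in the libraries titled WT male and 8, 2 and 95 in those titled KO male. The interaction thus follows the titles, not the sex or genotype that the RNA showed. In the libraries titled male, where 10 genes of any kind passed (0.0730%), the interferon list median was -0.31. Of its 60 members 0 were above WT in all KO libraries and 8 below, against 6.95% and 7.45% of all genes. Cmpk2 had 1.40 in the libraries titled female and -1.11 in those titled male, without overlap in either and in opposite directions (interaction 2.52 and adjusted p = 0.900 by edgeR's quasi-likelihood test). Usp18 had 1.01 and -0.67 (interaction 1.68), and Irf7 1.23 and -0.27. Cmpk2 stood at 41.5, 66.1 and 50.9 CPM in the libraries titled WT male and 24.2, 25.4 and 23.6 CPM in those titled KO male. Usp18 stood at 133, 191 and 162 CPM and at 138, 89.8 and 77.8 CPM. For both genes every library titled WT male lay above every library titled WT female. The interaction of Cmpk2 was 2.27 without WT 2 and KO 1, and 2.34 without the 4 libraries of the series whose sex-linked genes opposed the title. Cd22 had an interaction of -3.20, with a larger difference in the libraries titled male. Arhgap29, a regulator of small GTPases, had 0.04 and 2.56.

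Some genes were separate in both titled sexes. Lower without overlap in both were 308 genes (2.25%). These are 19.1% of the genes lower in the libraries titled female, against 7.45% of all genes lower in those titled male. They are 30.2% of the genes lower in the libraries titled male, against 11.8% of all genes lower in those titled female. Higher in both were 213 (1.56%), or 16.9% and 22.4%, against 6.95% and 9.20% of all genes. Higher in one and lower in the other were 17 (0.124%) and 15 (0.110%). Scin had -1.96 and -2.02, Far1 -0.96 and -0.85, Sh3bgrl -0.79 and -1.12, Nrn1 -1.32 and -1.25 and Colq 1.15 and 1.00, without overlap in either titled sex. The GC trend was shared, with medians from -0.24 to 0.18 in the libraries titled female and -0.21 to 0.22 in those titled male. With the length and GC trend removed, Far1 was at -0.56, Sh3bgrl -0.54, Scin -1.92, Nrn1 -1.32 and Colq 0.98 in the libraries titled female. Other named genes were separate in the libraries titled female and overlapped in those titled male, among them Eea1 (-1.10 and -0.45), Fam55d (-1.01 and -0.29), Lysmd3 (-1.26 and -0.27) and Tsc22d3 (0.97 and -0.23), and none of these interactions passed.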

How the data were processed

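The authors deposited raw counts per gene symbol (26609 genes, 12 libraries) and log2 values for 24584 of them, those with any count. The submitters' processing notes name HISAT2 2.0.5, edgeR, Subread, featureCounts 1.5.0-p2 and build GRCm38. Per the labels' protocols, libraries were made with SMART-Seq v4 and Nextera XT, a chemistry that does not mark strand. CPM with TMM scaling and a prior count of 0.25 matched the deposited log2 values to within 5e-14.

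Groups are those of the titles, which put 3 libraries in each of 4 groups. After filterByExpr, 13692 genes and at least 99.8% of each library's counts remained. In edgeR 4.0.16 under R 4.3.3, a robust quasi-likelihood model took 1 mean per group over the 12 libraries, with p-values adjusted over all genes. The biological coefficient of variation was 29.3%. SE come from the F statistic. Alternatives used DESeq2 1.42.0, limma 3.58.1, other scaling, no filter, a block, left-out libraries and, added after seeing the data, removal of a length and GC trend. Positions are RefSeq GRCm38.p6 (96.6% matched), lengths and GC those of the longest GENCODE transcript. The steps were tested on simulated counts.

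Members and the 32 gene lists were chosen with earlier results of these data known. Named genes are a fixed set, the 12 per direction with the smallest p among genes of at least 5 CPM whose groups do not overlap, 5 for the interaction, and, per list, the 2 with the smallest p, with any member of the interferon, MHC class I, B cell, Treg core, estrogen receptor and neutrophil lists allowed. Klf2, Lef1, Satb1, S1pr1, Bcl2, Icos, Il10, Ccr4 and Ikzf3 were named after their values were seen. Some members of the lists are counted in the totals and not reported by name here.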

Additional observations from a re-analysis of the deposited data

How the results depend on the processing

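For KO minus WT in the libraries titled female, edgeR called 0 genes, and other settings called 22 (DESeq2), 1698 (limma voom with quality weights), 132 (no filter on low counts) and 592 (DESeq2 on the 6 libraries alone, added after seeing the data). The cause was not tested. No gene was called with RLE scaling, with limma on the deposited log2 values, with the length and GC trend removed, on the 6 libraries alone, and without the libraries that opposed their titled sex. Leaving out 1 library gave 0 to 2, with Ppp1r15a and Rgs2 called without WT 3. For the interaction the counts were 3 (DESeq2), 106 (no filter) and 0 to 4 with 1 library left out, 1 without WT 3 and 4 without KO male 2. Genes higher without overlap numbered 2730 without WT 2 and KO 1, 2898 without the 4 libraries that opposed their titled sex, and 1261 to 3021 with 1 library left out. Lower genes numbered 2928, 3073 and 1648 to 3232, and fewer libraries overlap less often by construction. With the length and GC trend removed the signs of Parp14, Socs1 and Socs3 turned, to 0.05, -0.06 and -0.06. Among the named genes followed through every setting, which leave out most list members, signs turned for 4. Esr1 (-0.18) was at 0.08 with the trend removed and 0.25 with the trend and the block, Foxp3 (-0.05) at 0.15 with voom and Krt18 (1.30) at -0.25. With 1 library left out Esr1 ranged from -0.40 to 0.32, Foxp3 from -0.21 to 0.10, Arhgap29 (0.04) from -0.15 to 0.18 and Krt18 from -0.90 to 2.94. The title numbers did not pair the libraries, with correlations of -0.40, -0.19 and 0.08 between those of the same number, and the replicate block called 0 genes in both tests. Levels under the 3 counts per library, 0.198 to 0.274 CPM, are not resolved at this depth.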

Other observations

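All 35 tested cytosolic ribosomal protein genes had a positive log2 fold change in the libraries titled female, with a median of 0.30, and 12 (34.3%, against 9.20% of all genes) were above WT in all KO libraries. Rpl12, a large subunit gene, stood at 85.5, 109 and 90.6 CPM in WT and 137, 134 and 144 CPM in KO (0.54, SE 0.18, adjusted p = 0.4993). These transcripts are short. With the length and GC trend removed the median was 0.18 and 4 of 35 were above WT (11.4%, against 8.25% of all genes). Without KO 2, 27 of 35 were above WT (21.2% of all genes were), and without WT 2 also 27 (14.3%). Of 22 nuclear respiratory chain genes 19 were positive and 6 (27.3%) above WT, with a median of 0.16. Without WT 2, 13 were above (59.1%, against 14.3% of all genes). Without KO 2 or without WT 2 and KO 1, 14 were above (63.6%, against 21.2% and 19.4% of all genes). With the length and GC trend removed the median was 0.01, 15 were positive and 5 were above WT (22.7%, against 8.25% of all genes). In the libraries titled male the medians of these lists were -0.04 and -0.21.

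Immediate early genes, which are induced within minutes of stimulation, did not follow the groups. They summed to 1856, 2497 and 6430 CPM in WT 1 to 3 and to 4769, 4178 and 4692 CPM in KO 1 to 3. WT 3 was thus the highest and the other WT libraries were the lowest of the 6. Dusp1, a phosphatase of this class, stood at 140, 249 and 805 CPM in WT and 736, 569 and 770 CPM in KO (0.80, SE 0.46, adjusted p = 0.719). The median of 14 mitosis genes was -0.15 in the libraries titled female and 0.77 in those titled male, where 7 were above WT in all KO libraries (6.95% of all genes were). Mki67, a proliferation marker, stood at 59.9, 51.5 and 40.9 CPM in WT and 37.4, 31.5 and 46.4 CPM in KO.

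Among signalling lists the values split by gene. Of all tested genes 9.20% were above and 11.8% below WT in all KO libraries, and several counts here lie near these shares. Of 21 T cell receptor signalling genes 5 (23.8%) were above and 2 (9.52%) below, and 10 were above without KO 2 (21.2% of all genes were) and 6 below without WT 2 and KO 1 (20.8% were). The adaptor gene Lat stood at 603, 638 and 566 CPM in WT and 813, 945 and 701 CPM in KO (0.44, SE 0.15, adjusted p = 0.4993), and the coreceptor gene Cd28, named after its values were seen, at 537, 486 and 507 CPM and 388, 483 and 346 CPM (-0.33, SE 0.18). Of 13 TGF-beta pathway genes 3 (23.1%) were below and 0 above, among them the receptor gene Tgfbr1 at 264, 259 and 294 CPM in WT and 150, 236 and 135 CPM in KO (-0.65, SE 0.26). Of 18 hypoxia and glycolysis genes 2 (11.1%) were below and 1 (5.56%) above, but 10 were above without KO 2. Hif1a, the oxygen-sensing factor, stood at 634, 527 and 729 CPM in WT and 424, 495 and 425 CPM in KO (-0.49, SE 0.17, adjusted p = 0.507). With the length and GC trend removed Hif1a was at -0.20, Tgfbr1 at -0.32 and Lat at 0.24, and the groups of each overlapped. Of 14 cholesterol synthesis genes 3 (21.4%) were above and 1 (7.14%) below, with Fdps at 0.53 and Sqle at 0.42. Of 16 NF-kB genes 2 (12.5%) were above and of 14 unfolded protein response genes 1 (7.14%) was below, with list medians of 0.04 and 0.09. Without WT 2 and KO 1, 5 TGF-beta, 3 cholesterol and 3 unfolded protein response genes were below and 5 NF-kB genes above, against 20.8% and 19.4% of all genes.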
